A study of Mus musculus with 12 samples.

Results

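The genes considered here lie around the tumour suppressor p53 and the arrest of cell growth, and were followed through 4 groups of mouse kidney cells. They are Trp53, Mdm2, Cdkn1a, Ccng1, Phlda3, Gadd45a, Gadd45b, Gadd45g, Btg1 and Btg2. The set of 10 was taken by gene symbol, with earlier results of these data known, and each had a row among the 52015 genes used. Gene expression was measured by poly-A RNA-seq in 12 cultures of mpkCCD cells, a mouse line of cortical collecting duct principal cells. Scr_300 (2 libraries) and Scr_600 (2 libraries) are cells that carry a scramble guide RNA without a target and were grown for 5 days at 300 mosmol/kg (isotonic) or at 600 mosmol/kg (hypertonic, 100 mM NaCl and 100 mM urea added). Nfat5-KO_300 (4 libraries) and Nfat5-KO_600 (4 libraries) are cells whose Nfat5 gene was targeted by CRISPR/Cas9, grown in the same 2 media. NFAT5 is the transcription factor that drives the osmoprotective genes in hypertonic medium. The comparisons describe how the levels of these genes differ by tonicity and by genotype.

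The deposited values are FPKM (fragments per length of exon and per number of mapped reads), with 1 value per gene for each group and none per library. The knockout values pool the clones N1 and N3, and a difference between the clones cannot be seen in them. The loss of NFAT5 and the origin of these cells as selected clones cannot be told apart in these values. The paper reports that the clones had consistent profiles, and names clonal effects as a limit that it could not fully exclude. Each difference given here is therefore a comparison of 2 pooled values with no replicate check, without a p-value or an SD between cultures. The paper tested the same comparisons with DESeq2, and its gene lists are not used here. Ratios are given as log2 of FPKM + 0.1, a pseudocount that makes the ratios of weakly expressed genes smaller, and a gene entered a comparison if either of its groups reached 0.5 FPKM. All 10 genes pass this filter in each group. The steps between low FPKM values put the depth at 29.3 to 37.5 M mapped reads per library, and a counting standard error (SE) was taken from it. That SE covers counting error only and says nothing of the spread between cultures.

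p53 is a transcription factor that is kept low by the ubiquitin ligase MDM2 and that accumulates after DNA damage and other stress. It then switches on genes that stop the cell cycle, repair DNA or start cell death, and Mdm2 is itself one of these genes, which closes a negative feedback loop. High NaCl is known to break DNA and to slow the cycle of renal medullary cells. mpkCCD cells come from mice that carry the large T antigen of a tumour virus, a protein known to bind p53.

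The targeted gene, Nfat5, had 5.61 FPKM in Scr_300, 7.93 in Scr_600, 3.47 in Nfat5-KO_300 and 6.88 in Nfat5-KO_600. Its RNA was thus still counted in the knockout groups, with a log2 ratio to Scr of -0.68 at 300 and -0.20 at 600 mosmol/kg. A cut by Cas9 need not remove the transcript, and the RNA level does not measure the edit. The epithelial genes Krt8, Krt18, Epcam and Cdh1 were at 72.8 FPKM or more in every group, whereas the defining channel of the principal cell, Aqp2, did not exceed 0.24 FPKM and 7 or 8 of 14 duct and epithelial markers reached 0.5 FPKM. The 17 markers of other kidney cell types summed to 4.45 FPKM in Scr_300, 4.07 in Scr_600, 2.02 in Nfat5-KO_300 and 3.86 in Nfat5-KO_600, with Foxi1 at 0 throughout and Csf1r as the largest at 1.17 to 3.27. Their part in the results was not tested. In bulk RNA a lower level per cell and fewer cells that express a gene cannot be told apart.

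The genes that differ most between the groups are Mdm2 and Ccng1, which were highest in Nfat5-KO_600, Gadd45b and Gadd45g, which were highest in Nfat5-KO_300, and Btg1, which was highest in Scr_600. Trp53 itself was almost level. From Scr_300 to Scr_600, 0 of the 10 genes differed at least 2-fold, against 7.67% of the 12929 genes compared (4.81% higher, 2.86% lower). From Nfat5-KO_300 to Nfat5-KO_600, 4 of the 10 did (Mdm2 and Btg1 higher, Gadd45b and Gadd45g lower), against 10.4% of 12982 genes (6.25% higher, 4.11% lower). Between the genotypes at 300 mosmol/kg it was 1 gene, Gadd45g, higher in the knockout, against 4.17% of 12704 genes (1.73% higher, 2.44% lower). At 600 mosmol/kg it was 2 genes, Mdm2 and Ccng1, both higher in the knockout, against 7.44% of 13063 genes (3.76% higher, 3.68% lower). Each group enters 2 of these 4 comparisons, so they are not independent of each other.

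**Figure D1:**
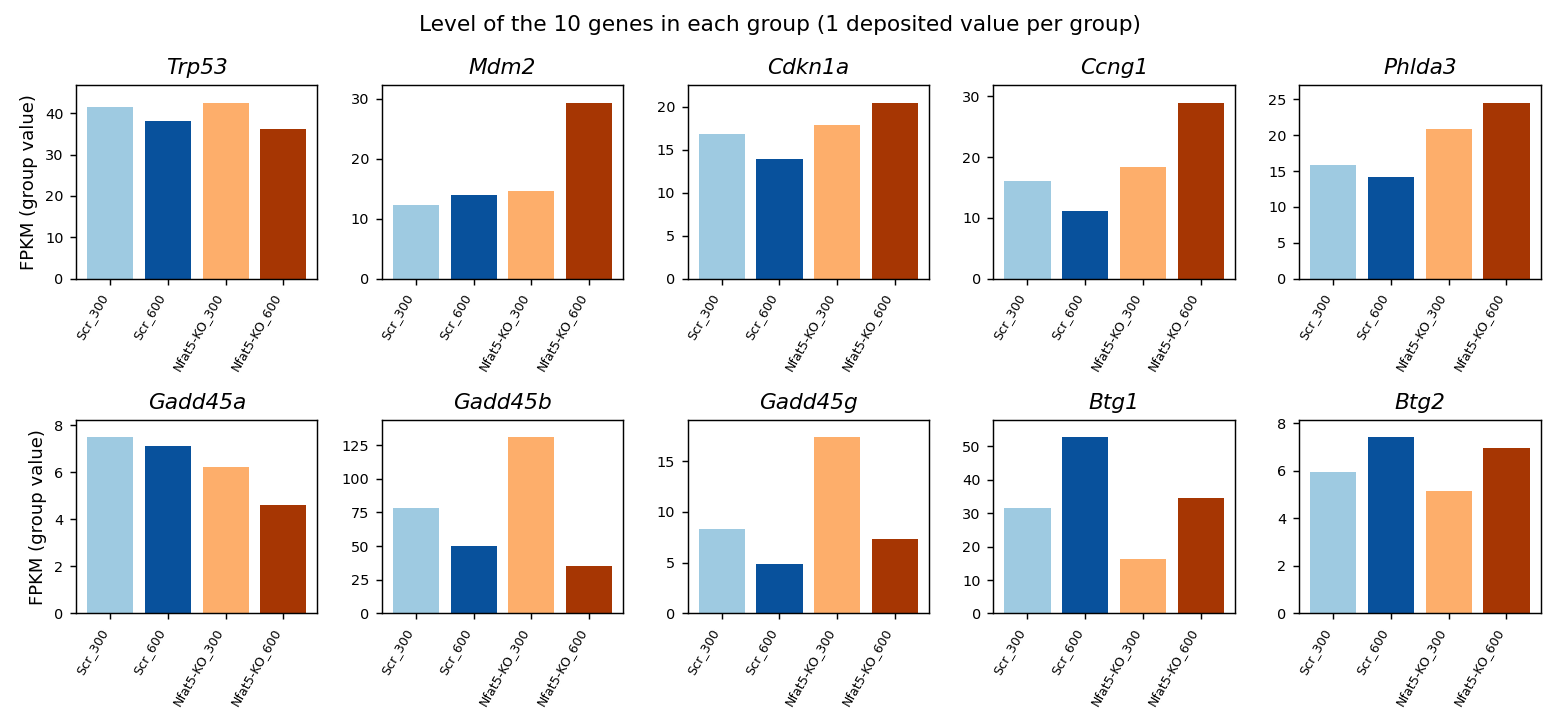
Level of each of the 10 genes in FPKM (vertical axis from 0, its own scale for each gene) in Scr_300, Scr_600, Nfat5-KO_300 and Nfat5-KO_600. Each bar is the single deposited value of a group, without an error bar, and Mdm2, Cdkn1a, Ccng1 and Phlda3 are highest in Nfat5-KO_600 while Trp53 stays between 36.3 and 42.6 FPKM.

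Trp53 encodes p53 and lies at chr11:69580359-69591873 on the + strand (GRCm38). It had 41.4 FPKM in Scr_300, 38.1 in Scr_600, 42.6 in Nfat5-KO_300 and 36.3 in Nfat5-KO_600. Its highest group was 1.17 times its lowest, the smallest range of the 10 genes. Among all genes that reached 0.5 FPKM it stood at the 90.5th to 90.9th percentile in each group. The log2 ratio of hypertonic to isotonic medium was -0.12 in Scr cells (counting SE 0.019) and -0.23 in Nfat5-KO cells (0.014), and both turn to slightly above 0 (0.0083 and 0.012) when the group columns are scaled to equal sums, as does the ratio of the genotypes at 600 mosmol/kg (-0.07, then 0.058). p53 is regulated mainly through the stability of the protein, which RNA does not show.

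Mdm2, the ubiquitin ligase that marks p53 for breakdown, lies at chr10:117688875-117710758 on the - strand. It had 12.4 FPKM in Scr_300, 14.0 in Scr_600, 14.6 in Nfat5-KO_300 and 29.4 in Nfat5-KO_600. The hypertonic knockout stood apart from the other groups, which lay close together. In Nfat5-KO cells hypertonic medium went with a 2.00-fold higher level (log2 1.00, counting SE 0.018), just past the 2-fold mark, and in Scr cells with a log2 ratio of 0.18 (0.030). At 600 mosmol/kg the knockout was 2.09-fold above Scr (log2 1.07, counting SE 0.022), and 3.31% of the genes compared lay further out in that direction. Since Trp53 was level, the ratio of Mdm2 to Trp53 FPKM was 0.298 in Scr_300, 0.367 in Scr_600, 0.343 in Nfat5-KO_300 and 0.810 in Nfat5-KO_600.

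Cdkn1a encodes p21, the inhibitor of cyclin-dependent kinases through which p53 arrests cells before S phase, and lies at chr17:29090976-29100727 on the + strand. It had 16.9 FPKM in Scr_300, 14.0 in Scr_600, 17.9 in Nfat5-KO_300 and 20.5 in Nfat5-KO_600. The highest group was 1.47 times the lowest, and no comparison reached 2-fold. Hypertonic medium went with a log2 ratio of -0.27 (counting SE 0.033) in Scr and of 0.20 (0.022) in Nfat5-KO cells. At 600 mosmol/kg the knockout was 1.46-fold above Scr (log2 0.55), and at 300 mosmol/kg 1.06-fold.

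Ccng1 encodes cyclin G1, which brings a phosphatase to MDM2, and lies at chr11:40748552-40755311 on the - strand. Its values were 16.1 FPKM in Scr_300, 11.0 in Scr_600, 18.4 in Nfat5-KO_300 and 28.9 in Nfat5-KO_600. Hypertonic medium thus went with a lower level in Scr cells (log2 -0.54, counting SE 0.036) and a higher one in Nfat5-KO cells (log2 0.65, counting SE 0.020). The 2 genotypes differed 1.14-fold at 300 mosmol/kg and 2.61-fold at 600 mosmol/kg (log2 1.38, counting SE 0.030), the largest ratio of the 10 genes in that comparison, with 1.78% of all genes compared further out.

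Phlda3, a small pleckstrin homology protein that keeps the kinase AKT from the membrane, lies at chr1:135766119-135769136 on the + strand. It had 15.9 FPKM in Scr_300, 14.1 in Scr_600, 20.9 in Nfat5-KO_300 and 24.6 in Nfat5-KO_600. Both knockout groups lay above both Scr groups. The knockout was 1.32-fold above Scr at 300 mosmol/kg (log2 0.40, counting SE 0.042) and 1.74-fold at 600 mosmol/kg (log2 0.79, counting SE 0.041). The hypertonic ratio was -0.17 on the log2 scale in Scr and 0.23 in Nfat5-KO cells.

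Cdkn1a, Ccng1 and Phlda3 had in common that their hypertonic value lay below the isotonic one in Scr cells and above it in Nfat5-KO cells. These are 3 of the 10 genes, and 14.1% of all 13414 genes that reached 0.5 FPKM in a group show such a pair of signs. With columns of equal sum the Scr log2 ratio was -0.14 for Cdkn1a and -0.038 for Phlda3, the latter within its counting SE of 0.050. The log2 difference of the responses (Nfat5-KO minus Scr) was 0.83 for Mdm2, 0.47 for Cdkn1a, 1.19 for Ccng1 and 0.40 for Phlda3. It reached 1 in size for 2 of the 10 genes, Ccng1 and Gadd45b, against 7.04% of the 13414 genes (3.88% with a higher and 3.16% with a lower response in Nfat5-KO). No test of these differences was possible with 1 value per group.

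**Figure D2:**
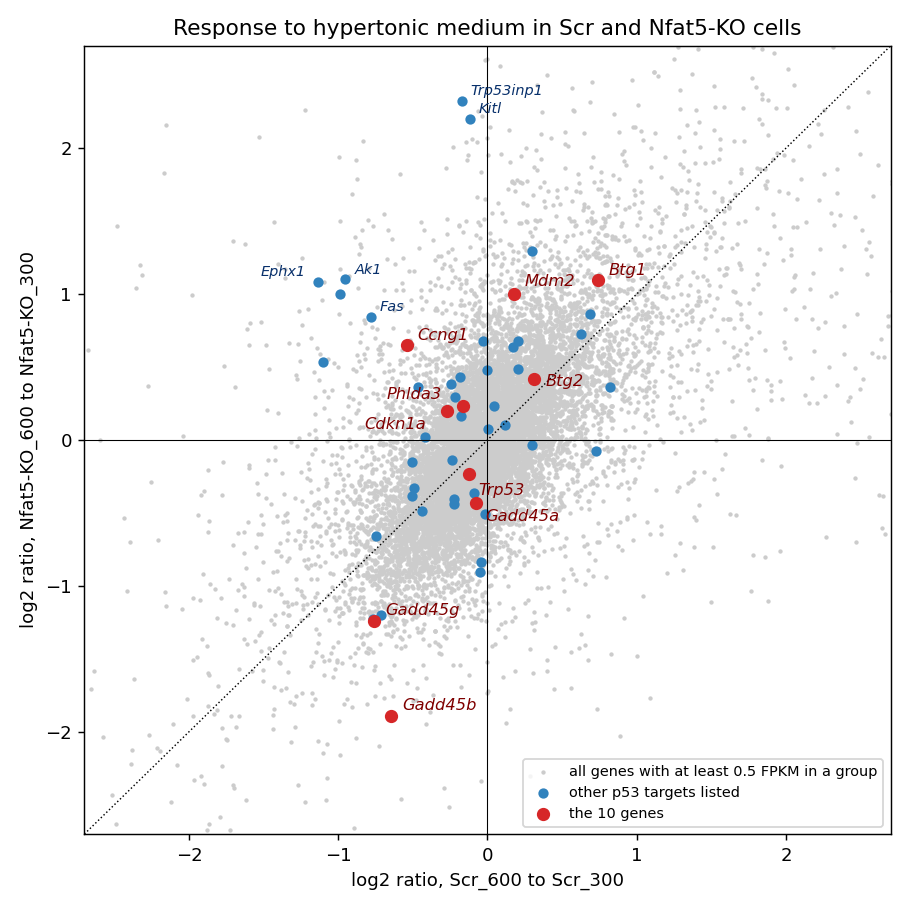
Log2 ratio of hypertonic to isotonic medium in Scr cells (horizontal axis) and in Nfat5-KO cells (vertical axis), both of FPKM + 0.1, for the 10 genes (red), the other listed p53 targets (blue) and all genes that reached 0.5 FPKM in a group (grey, those beyond the axes not drawn). On the dotted diagonal both genotypes respond alike, and Mdm2 and Ccng1 lie above it by 0.83 and 1.19 while Gadd45b lies below it by 1.25.

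The upstream sequences are shown because 2 of them hold a near match to the letters that p53 is known to bind. The 250 bases before each annotated start were read from RefSeq for GRCm38.p6 (11 windows for the 10 genes, Cdkn1a with 2 starts). The 20-letter p53 consensus was searched without a spacer, with at most 1 mismatch and with its fixed C and G letters kept, and it reads the same on both strands. It was matched in 2 of the 11 windows, those of Ccng1 and of the first start of Cdkn1a, and in 19 of 32851 windows of all genes (0.0578%). Both of the 2 matches carry 1 mismatch. The 10 genes were chosen as lying around p53, so setting these shares side by side is no test. The match of Cdkn1a begins 51 bases before its first start (window chr17:29090729-29090978, + strand). The window of its second start, further downstream (chr17:29093519-29093768, + strand), held no match. The match of Ccng1 begins 195 bases before the start (window chr11:40755287-40755536, - strand). The core letters TGGAAA that NFAT5 and other NFAT proteins recognise were searched on both strands and were matched in 18.6% of all windows. Among the 10 genes they were matched in 2 of the 11 windows, near the share of all windows. These were Gadd45b, from 152 and from 92 bases before the start (window chr10:80929841-80930090, + strand), and Trp53. Mdm2 is printed for comparison (window chr10:117710759-117711008, - strand), without a match of either motif. The p53 sites known in Mdm2 lie in its first intron, outside the window. The matches are in capitals, p53 consensus in Cdkn1a (window of the first start) and Ccng1, TGGAAA or its reverse complement in Gadd45b.
Cdkn1a: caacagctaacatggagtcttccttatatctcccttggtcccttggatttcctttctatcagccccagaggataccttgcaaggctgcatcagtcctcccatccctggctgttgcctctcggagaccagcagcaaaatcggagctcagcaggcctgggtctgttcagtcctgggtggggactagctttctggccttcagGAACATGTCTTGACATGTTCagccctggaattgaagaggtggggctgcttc
Ccng1: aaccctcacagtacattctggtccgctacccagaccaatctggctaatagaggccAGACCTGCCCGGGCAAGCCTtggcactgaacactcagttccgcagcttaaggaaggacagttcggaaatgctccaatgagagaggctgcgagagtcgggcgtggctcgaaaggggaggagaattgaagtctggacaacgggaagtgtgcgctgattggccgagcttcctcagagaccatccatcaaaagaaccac
Mdm2: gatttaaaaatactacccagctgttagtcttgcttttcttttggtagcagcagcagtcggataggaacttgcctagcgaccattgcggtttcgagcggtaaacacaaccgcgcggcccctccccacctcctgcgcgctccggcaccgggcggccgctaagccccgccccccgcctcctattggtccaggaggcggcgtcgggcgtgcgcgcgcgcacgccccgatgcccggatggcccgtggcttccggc
Gadd45b: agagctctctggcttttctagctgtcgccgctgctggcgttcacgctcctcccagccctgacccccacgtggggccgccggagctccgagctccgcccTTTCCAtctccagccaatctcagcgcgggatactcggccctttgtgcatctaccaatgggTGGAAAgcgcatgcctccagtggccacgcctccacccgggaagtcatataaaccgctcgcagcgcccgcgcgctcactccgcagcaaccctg
A match of letters is a description and does not show binding. Of the other listed p53 targets, 37 of 45 had a window, and the p53 consensus was matched in 1 of them, Rps27l.

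The 3 GADD45 proteins are small stress sensors that bind PCNA, p21 and the kinase MAP3K4, upstream of p38 and JNK. Gadd45b lies at chr10:80930073-80932204 on the + strand and was the most abundant of them in every group. It had 78.5 FPKM in Scr_300, 50.2 in Scr_600, 131 in Nfat5-KO_300 and 35.2 in Nfat5-KO_600. The isotonic knockout was thus the highest group and the hypertonic knockout the lowest. Hypertonic medium went with a 3.71-fold lower level in Nfat5-KO cells (log2 -1.89, counting SE 0.019), and 0.593% of the genes compared lay further out in that direction. In Scr cells the level was 1.56-fold lower (log2 -0.64, counting SE 0.025), and the log2 difference of the 2 responses was -1.25. The genotypes differed in opposite directions in the 2 media, with a log2 ratio of 0.74 at 300 and of -0.51 at 600 mosmol/kg.

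Gadd45g lies at chr13:51846678-51848468 on the + strand. Its level was 8.31 FPKM in Scr_300, 4.87 in Scr_600, 17.3 in Nfat5-KO_300 and 7.29 in Nfat5-KO_600. Both hypertonic groups lay below the isotonic group of the same genotype, and both knockout groups above the Scr group in the same medium. The hypertonic log2 ratio was -0.76 (counting SE 0.090) in Scr and -1.24 (0.050) in Nfat5-KO cells, and the knockout ratio 1.05 (0.063) at 300 and 0.57 (0.082) at 600 mosmol/kg. These counting errors are the widest of the 10 genes except in the hypertonic comparison of Nfat5-KO cells, and an estimated 413 reads stand behind the Scr_600 value.

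Gadd45a, the classical p53 target of the family, whose p53 site lies in an intron, is at chr6:67035096-67037457 on the - strand. It was the lowest of the family in both isotonic groups and in Nfat5-KO_600, with 7.49 FPKM in Scr_300, 7.11 in Scr_600, 6.24 in Nfat5-KO_300 and 4.60 in Nfat5-KO_600. Unlike Mdm2 and Ccng1 it was lowest in the hypertonic knockout. The log2 ratio to Scr_600 was -0.62 there (counting SE 0.064), and the hypertonic ratio was -0.07 (0.068) in Scr cells, within counting error of 0 and above 0 with columns of equal sum, and -0.43 (0.058) in Nfat5-KO cells. A gene on the other strand, E230016M11Rik, overlaps it with 0.118 to 0.374 FPKM, and the use of strand in counting is not given in the sources used here.

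The 3 genes together came to 94.3 FPKM in Scr_300, 62.2 in Scr_600, 154 in Nfat5-KO_300 and 47.1 in Nfat5-KO_600. Gadd45b made up 83.3%, 80.7%, 84.7% and 74.8% of these sums. The sum therefore follows Gadd45b, while the share of Gadd45g ranged from 7.84% in Scr_600 to 15.5% in Nfat5-KO_600. Of the 9 expressed partners out of 10 listed, among them Map3k4, Mapk14, Mapk8, Pcna, Cdk1 and Ccnb1, 0 differed 2-fold in any of the 4 comparisons, near the background of 4.17% to 10.4% for a list of this size. Their largest log2 ratio in size was -0.47, for the kinase gene Mapk8 in Nfat5-KO cells (2.69 FPKM at 300 and 1.91 at 600 mosmol/kg).

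Btg1 and Btg2 are antiproliferative proteins that bring the CCR4-NOT deadenylase to mRNA, and Btg2 is a known p53 target. Btg1 lies at chr10:96617006-96622809 on the + strand and had 31.5 FPKM in Scr_300, 52.7 in Scr_600, 16.2 in Nfat5-KO_300 and 34.6 in Nfat5-KO_600. It was higher in hypertonic medium in both genotypes and lower in the knockout in both media. The hypertonic log2 ratio was 0.74 (counting SE 0.017) in Scr and 1.09 (0.017) in Nfat5-KO cells. The knockout ratio was -0.96 (0.019), 1.94-fold lower, at 300 mosmol/kg and -0.60 (0.014) at 600 mosmol/kg. The hypertonic knockout thus came close to the isotonic Scr cells.

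Btg2 lies at chr1:134075170-134079120 on the - strand and had 5.93 FPKM in Scr_300, 7.40 in Scr_600, 5.17 in Nfat5-KO_300 and 6.94 in Nfat5-KO_600. Its hypertonic log2 ratio was 0.31 (counting SE 0.057) in Scr and 0.42 (0.044) in Nfat5-KO cells. The knockout ratio was -0.20 at 300 and -0.09 at 600 mosmol/kg, the second of which lies above 0 with columns of equal sum. Btg2 thus varied less than Btg1, whose FPKM was 5.30 times that of Btg2 in Scr_300, 7.11 times in Scr_600, 3.13 times in Nfat5-KO_300 and 4.99 times in Nfat5-KO_600.

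**Figure D3:**
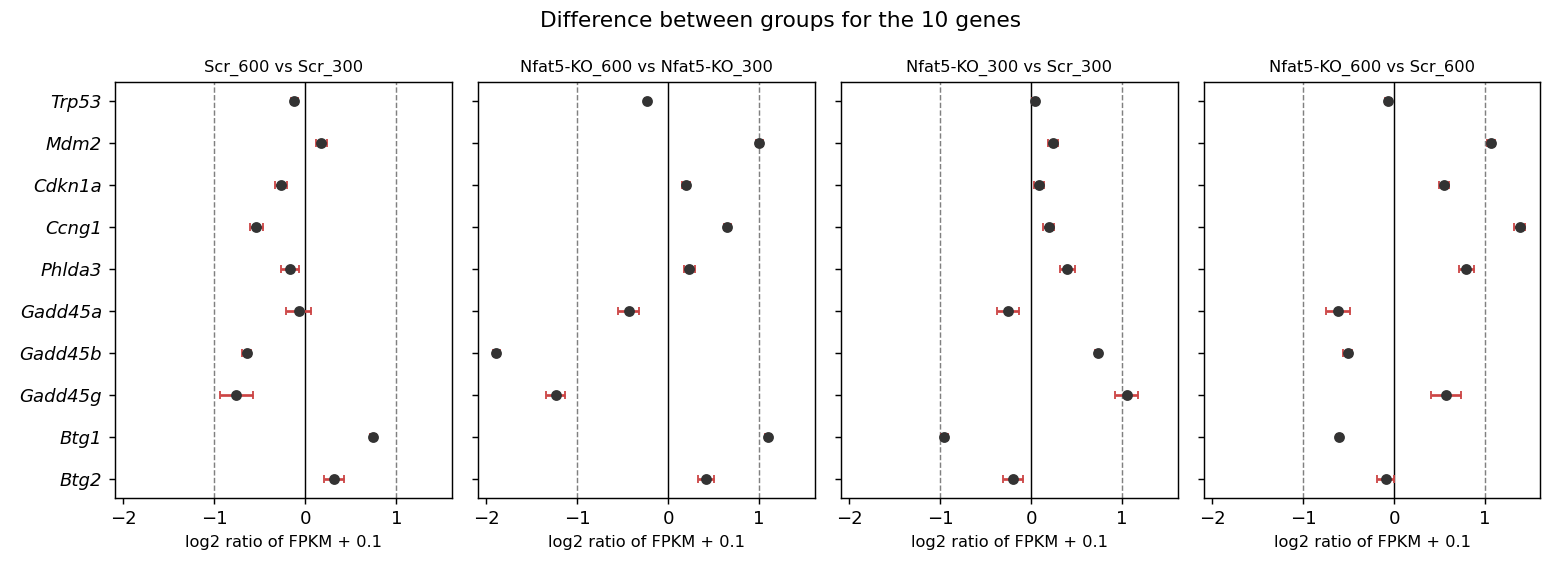
Log2 ratio of FPKM + 0.1 for each of the 10 genes in the 4 comparisons named above the panels, with dashed lines at 2-fold. Bars span 2 counting SE on each side and cover counting error only, and they are far shorter than the ratios of Gadd45b in Nfat5-KO cells (-1.89) and of Ccng1 at 600 mosmol/kg (1.38).

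In order of level, Gadd45b led in Scr_300 and Nfat5-KO_300, Btg1 in Scr_600 and Trp53 in Nfat5-KO_600, where Trp53, Gadd45b and Btg1 lay between 34.6 and 36.3 FPKM. Btg2 was the lowest in both isotonic groups, Gadd45g in Scr_600 and Gadd45a in Nfat5-KO_600. In Scr_600 Phlda3 (14.1 FPKM), Mdm2 (14.0) and Cdkn1a (14.0) were not separable. The spread between libraries, which would say which further neighbours differ, is not known. The median of the 10 genes was 16.0 FPKM in Scr_300, 14.0 in Scr_600, 17.6 in Nfat5-KO_300 and 26.8 in Nfat5-KO_600.

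A list of 45 other direct p53 targets was set beside them, of which 41 reached 0.5 FPKM in a group. Between the genotypes at 600 mosmol/kg, 5 of 41 were at least 2-fold higher in the knockout and 0 lower, against 3.76% higher and 3.68% lower among all genes compared. Of the 5, Fas, Psrc1 and Ak1 were under 0.5 FPKM in Scr_600. They passed the filter only through Nfat5-KO_600, the group where they were high, so the count leans to that side. The median log2 ratio of the list between the genotypes at 600 mosmol/kg was 0.29, against -0.02 over all genes, and 28 of 41 lay above 0. At 300 mosmol/kg the median was 0.06, with 2 of 41 higher and 2 lower by 2-fold, against 1.73% higher and 2.44% lower among all genes compared. Of these, Ak1 (higher) passed the filter only through Nfat5-KO_300 and Kitl (lower) only through Scr_300. In each this was the group where the gene was high, so this count leans too. For the hypertonic ratio the median was -0.17 in Scr and 0.23 in Nfat5-KO cells, against -0.04 over all genes in both. In 15 of the 41 the hypertonic value lay below the isotonic one in Scr and above it in Nfat5-KO cells, against 14.1% of all genes. Both figures take signs of any size. Among the 15, the Scr ratios of Apaf1 (-0.0024) and Abhd4 (-0.032) and the Nfat5-KO ratio of Slc19a2 (0.023) lay within counting error of 0. Ak1 was under 0.5 FPKM in both Scr groups.

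The 5 genes were Trp53inp1, Ephx1, Fas, Psrc1 and Ak1. Trp53inp1, a nuclear protein that favours p53-dependent cell death, had 1.40 FPKM in Scr_300, 1.23 in Scr_600, 1.45 in Nfat5-KO_300 and 7.66 in Nfat5-KO_600. Ephx1, the microsomal epoxide hydrolase, had 7.74, 3.47, 6.98 and 14.9 FPKM in the same order. In both, as for Ccng1, the hypertonic knockout was highest and Scr_600 lowest. The death receptor Fas, with 0.52, 0.26, 0.59 and 1.14 FPKM, and the microtubule-associated Psrc1, with 0.87, 0.35, 1.09 and 1.63, had these extremes too at a low level. Ak1, an adenylate kinase, had 0.40, 0.16, 1.10 and 2.47 FPKM, and was already higher in the isotonic knockout (log2 1.25).

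Other targets did not follow Mdm2. Bax, a core effector of cell death, stayed between 30.4 and 34.4 FPKM. Plk2, a kinase of the cell cycle, had 54.3 FPKM in Scr_300, 31.9 in Scr_600, 68.5 in Nfat5-KO_300 and 29.2 in Nfat5-KO_600, and Rrm2b, the p53-induced subunit of ribonucleotide reductase, 3.54, 2.12, 4.22 and 1.78. Those 2 shared the order of Gadd45b, with the isotonic knockout highest and the hypertonic knockout lowest. Epha2, an ephrin receptor, was highest in Nfat5-KO_300 as well, with 35.3 FPKM against 14.7 to 18.8 in the other groups. Gdf15, a secreted stress cytokine, had 110 FPKM in Scr_300, 169 in Scr_600, 71.8 in Nfat5-KO_300 and 119 in Nfat5-KO_600, the same order of the groups as for Btg1. The targets Kitl, Pltp and Cyfip2 passed 2-fold elsewhere in the knockout. Kitl, the ligand of the KIT receptor, had 0.74, 0.68, 0.21 and 1.33 FPKM, Pltp, a phospholipid transfer protein, 1.42, 0.66, 0.64 and 1.37, and Cyfip2, an actin regulator, 2.56, 3.17, 1.75 and 4.45.

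**Figure D4:**
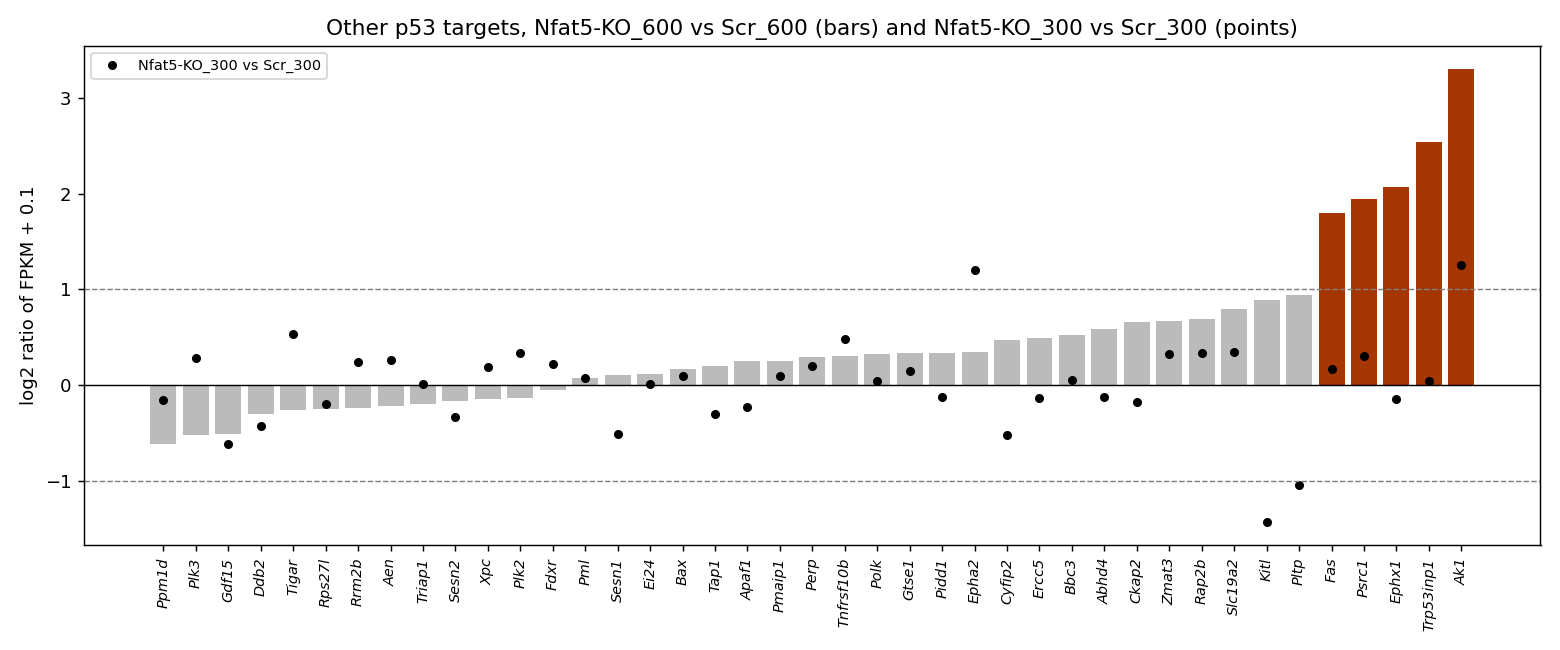
Log2 ratio of knockout to Scr cells (FPKM + 0.1) for the 41 expressed p53 targets outside the 10 genes, at 600 mosmol/kg as bars from 0 and at 300 mosmol/kg as points. The 5 coloured bars are at least 2-fold higher in Nfat5-KO_600, from Fas to Ak1 (3.30), and no bar reaches 2-fold lower.

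Of 20 expressed regulators and relatives of p53 out of 22 listed, 1 reached 2-fold, at 600 mosmol/kg between the genotypes, where 7.44% of all genes did. This was Ppp1r13b, a p53-binding cofactor of cell death, with 4.82 FPKM in Scr_600 and 10.0 in Nfat5-KO_600 (log2 1.04). The coactivator gene Crebbp came close, with 1.91 FPKM in Scr_300, 2.45 in Scr_600, 3.21 in Nfat5-KO_300 and 4.98 in Nfat5-KO_600. Mdm4, the partner of MDM2, stayed between 4.68 and 5.54 FPKM, unlike Mdm2. Trp63 and Trp73, the p53 relatives, did not exceed 0.145 FPKM. Cdkn2a, whose second product holds MDM2 off p53, was abundant in every group at 84.6 to 114 FPKM.

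Among the inhibitors of cyclin-dependent kinases other than p21, 0 of 6 expressed genes out of 7 reached 2-fold, where 4.17% to 10.4% of all genes did in a comparison, so that 0 is near the background for a list of this size. Cdkn1b, which encodes p27, was highest in Nfat5-KO_600 (19.3 FPKM) and lowest in Scr_600 (14.1), as Cdkn1a was. Cdkn3, a phosphatase gene of dividing cells, went the other way in the knockout, with 10.5 FPKM in Scr_300, 6.07 in Scr_600, 7.54 in Nfat5-KO_300 and 3.90 in Nfat5-KO_600. Of 13 expressed partners of p21 at the start of S phase out of 14, 1 passed 2-fold, in hypertonic against isotonic knockout cells, where 10.4% of all genes did. This was the cyclin Ccnd1, with 99.4 FPKM in Scr_300, 52.1 in Scr_600, 124 in Nfat5-KO_300 and 59.4 in Nfat5-KO_600, a 2.08-fold lower level in hypertonic knockout cells. Pcna, which p21 and the GADD45 proteins bind, had 192, 148, 150.4 and 128 FPKM.

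In the BTG/TOB family and its deadenylase partners, 0 of 9 expressed genes out of 10 reached 2-fold, again near the background of 4.17% to 10.4%. Tob1, an antiproliferative relative of Btg1, had 18.8 FPKM in Scr_300, 15.3 in Scr_600, 16.7 in Nfat5-KO_300 and 26.1 in Nfat5-KO_600, and thus did not share the order of Btg1. Btg3 was lower in hypertonic medium in both genotypes, from 7.62 to 4.95 FPKM in Scr and from 8.62 to 4.90 in Nfat5-KO cells. Ccng2, the relative of Ccng1, stayed between 15.2 and 18.9 FPKM. Of the relatives of Phlda3, Phlda2 was 6.96 FPKM in Nfat5-KO_300 and 2.69 in Nfat5-KO_600 (log2 -1.34), and Phlda1 was 15.9 and 8.59 FPKM.

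Of 13 expressed other growth arrest genes, 1 differed 2-fold between the genotypes at 300 mosmol/kg (Ndrg1, against 4.17% of all genes) and 2 at 600 mosmol/kg (Ddit4 and Cebpd, against 7.44%). Ndrg1 had 24.2 FPKM in Scr_300, 9.01 in Scr_600, 11.6 in Nfat5-KO_300 and 6.79 in Nfat5-KO_600. Ddit4, an inhibitor of mTORC1, had 34.6, 60.4, 28.6 and 23.1 FPKM, and Cebpd, a stress transcription factor, 1.67, 3.24, 3.32 and 1.37. In both of the latter the hypertonic value was above the isotonic one in Scr and below it in Nfat5-KO cells, the opposite of Ccng1. Klf4, a transcription factor that holds epithelial cells from division, had 12.5 FPKM in Nfat5-KO_300 and 4.70 in Nfat5-KO_600 (log2 -1.39).

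The genes whose pattern over the 4 groups was most like that of a gene of the set were sought among 7859 genes that reached 5 FPKM in a group, by the root mean square distance of log2 values centred on each gene. For Mdm2 these were Tbc1d16, Amigo1 and Arhgef19, with distances of 0.0633 to 0.0690. For Ccng1 they were Eya2, Nacc2 and Tmem150a (0.0895 to 0.121), and for Btg1 Nuak1, Rdh10 and Idh1 (0.111 to 0.132). For Gadd45b they were Ptpn22, Gm48583 and Sfn (0.0633 to 0.0896), of which Sfn, 14-3-3 sigma, had 33.5 FPKM in Scr_300, 20.3 in Scr_600, 48.1 in Nfat5-KO_300 and 15.1 in Nfat5-KO_600. For Gadd45g they were Dsc2, Fgf5 and Pcnx4 (0.0788 to 0.0879). With 4 points per gene many genes lie close by, and the likeness is a description.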

How the data were processed

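RNA from 12 mpkCCD cultures was sequenced as paired-end, poly-A selected libraries. The authors mapped the reads with HISAT2 to mm10 (GRCm38), counted them per gene with HTSeq and deposited FPKM, a single value for a gene in each of 4 groups. Versions, annotation release and use of strand are not given in the sources used here. The 10 genes and all lists were chosen with earlier results of these data known.

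Log2 ratios of FPKM + 0.1 were taken for genes that reached 0.5 FPKM in either group, and genes at least 2-fold apart were counted. Depth was read from the steps of low values times the exon length of GENCODE, of which 84.1% to 89.5% were whole-read combinations within 0.5%, and it gave the counting SE. Groups were pooled by the authors, so no test, paired fit or omission of a replicate could be run. Genes named are the 10, Nfat5, markers, list members at least 2-fold changed with at least 1 FPKM (otherwise the extremes) and the 3 genes of most like pattern for each gene that ranged at least 2-fold. Bax, Plk2, Tob1 and further list members were named after their values were seen. Ddit3, with 2 different rows, was left out, and 1 further listed p53 target is not reported here. The steps were tested on simulated data. Alternatives were pseudocounts of 1 and 0.01, other filters, 2 scalings and a 1.5-fold mark. Scripts ran in Python 3.11.15 with pandas 2.3.3, numpy 2.4.6 and matplotlib 3.10.9.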

Additional observations from a re-analysis of the deposited data

Results flagged for a closer look

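The genes given here are those of the set, and the genes of the p53, cell cycle and growth arrest lists that were at least 2-fold apart in a comparison and in the difference of the responses, whose hypertonic and isotonic values differed in opposite directions in the 2 genotypes by more than counting error. Other listed genes outside these limits had opposite directions too. Each is given as the log2 difference of the responses, Nfat5-KO minus Scr. With 1 value per group the difference was not tested. Among the 10 genes it was 0.47 for Cdkn1a (-0.27 in Scr and 0.20 in Nfat5-KO), 1.19 for Ccng1 (-0.54 and 0.65) and 0.40 for Phlda3 (-0.17 and 0.23). With columns of equal sum the Scr ratio of Phlda3 was -0.038, within counting error of 0. Among the other p53 targets that reached 2-fold in a comparison it was 2.50 for Trp53inp1 (-0.17 and 2.32), 1.63 for Fas (-0.78 and 0.85), 2.22 for Ephx1 (-1.13 and 1.08), 1.99 for Pltp (-0.99 and 1.00), 2.05 for Ak1 (-0.95 and 1.10) and 1.64 for Psrc1 (-1.10 and 0.53). Fas, Ak1 and Psrc1 stayed under 0.5 FPKM in Scr_600, where few reads stand behind the ratio. Ak1 was under 0.5 FPKM in Scr_300 too (0.40), so its Scr ratio did not pass the filter and is given only as a value. In 2 growth arrest genes the sign was the reverse, with -1.11 for Ddit4 (0.80 and -0.31) and -2.14 for Cebpd (0.92 and -1.22).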

How the results depend on the processing

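No paired analysis was possible because each group has 1 pooled value, and for the same reason no replicate could be left out. Counts of the 10 genes past the mark depended on it. With a 1.5-fold mark they were 3 from Scr_300 to Scr_600 (Gadd45b and Gadd45g lower, Btg1 higher). From Nfat5-KO_300 to Nfat5-KO_600 they were 5 (Mdm2, Ccng1 and Btg1 higher, Gadd45b and Gadd45g lower). Between genotypes they were 3 at 300 mosmol/kg (Gadd45b and Gadd45g higher, Btg1 lower) and 5 at 600 mosmol/kg (Mdm2, Ccng1 and Phlda3 higher, Gadd45a and Btg1 lower). For the difference of the responses the count was 3 (Mdm2 and Ccng1 higher, Gadd45b lower). The share of all genes past 1.5-fold was not taken, so these counts have no background beside them. With a pseudocount of 1 the count at 300 mosmol/kg was 0, and the log2 ratio of Mdm2 in Nfat5-KO cells was 0.96. With columns of equal sum that of Gadd45g was -0.999, just short of 2-fold. Equal sums shifted all ratios by 0.13 in Scr and 0.24 in Nfat5-KO cells and by 0.13 between genotypes at 600 mosmol/kg, and 5 of the 40 ratios of the 10 genes then changed sign (Trp53 in 3 comparisons, Gadd45a in Scr cells and Btg2 at 600 mosmol/kg). Median-of-ratios factors and the other pseudocounts changed no sign, with shifts up to 0.081 and 0.093. The median of the other p53 targets ranged from -0.18 to -0.05 in Scr, from 0.13 to 0.48 in Nfat5-KO cells, from 0.04 to 0.08 at 300 and from 0.25 to 0.42 at 600 mosmol/kg. Over the lists, 11 of 192 medians changed sign under an alternative, and none moved by more than 0.24.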

Other observations

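Of 8 expressed duct and epithelial markers, 3 were at least 2-fold higher in the knockout at 600 mosmol/kg, against 3.76% of all genes, and 3 lay below 0 (lowest log2 ratio -0.40, median 0.32). The 3 higher ones were Gata3, Hsd11b2 and Scnn1a. Gata3, a transcription factor of the duct, had 3.41 FPKM in Scr_300, 4.33 in Scr_600, 11.8 in Nfat5-KO_300 and 30.0 in Nfat5-KO_600. Hsd11b2, which protects the mineralocorticoid receptor from cortisol-type steroids, had 0.38, 0.66, 1.95 and 6.18 FPKM, and Scnn1a, a subunit of the epithelial sodium channel, 2.95, 1.31, 3.56 and 7.03. Scnn1a had Scr_600 lowest and Nfat5-KO_600 highest, as Ccng1 did. Of the 17 markers of other kidney cell types, 3 reached 0.5 FPKM in either group at 600 mosmol/kg. The proximal tubule receptor Lrp2 was higher in the knockout (1.07 FPKM, and 0.17 or less in the other groups), while the intercalated cell proton pump subunit Atp6v1b1 (log2 -1.37) and the macrophage receptor Csf1r (-0.92) were lower. Atp6v1b1 and Csf1r were lower in the knockout at 300 mosmol/kg as well (-0.996 and -1.41). Lrp2 passed the filter only through Nfat5-KO_600, and Atp6v1b1 only through the Scr group in each medium. These were the groups where they were high, so the filter favours those directions.

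Among neighbours and copies of the 10 genes, the pseudogene Trp53-ps had 1.48 to 1.97 FPKM. Btg1-ps1 and Btg1-ps2 were listed at 0. Wrap53, which adjoins Trp53 on the other strand, had 9.47 FPKM in Scr_300, 8.40 in Scr_600, 11.2 in Nfat5-KO_300 and 9.79 in Nfat5-KO_600.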
